A study of Rattus norvegicus with 6 samples.

Results

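Heat shock chaperones are proteins that keep other proteins folded, and the 10 genes described here encode the main ones of the cytosol and the mitochondrial matrix: Hspa8, Hspa4, Hsph1, Dnaja1, Dnajb1, Hsp90aa1, Hsp90ab1, Hspb1, Hspd1 and Hspe1. They were chosen by gene name from the 33589 rows of the deposited expression table, where each of the 10 names had a single row. The series measured polyA RNA of rat mesenchymal stem cells (MSCs, stromal cells with bone marrow as the labelled source) that had been cultured in a hydrogel the labels call SA. The gel was soft (2 kPa) or stiff (18 kPa), the culture lasted 48 h in both groups, and each group had 3 libraries here, although the design text speaks of quadruplicates. Both groups shared the low-glucose medium with serum and antibiotics, and in both the cells were taken out of the gel before libraries were made. No strain, age or number of animals is given in the sources used here, and nothing says that replicates came from separate cultures or animals, so the spread between libraries may be technical.

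HSP70 proteins such as the product of Hspa8 bind short exposed stretches of unfolded chains in an ATP-driven cycle. J-domain proteins, encoded by Dnaja1 and Dnajb1 among others, deliver clients and trigger ATP hydrolysis, and relatives of HSP70 encoded by Hspa4 and Hsph1 reopen the nucleotide pocket. HSP90 acts later, on nearly folded clients such as kinases and steroid receptors, small heat shock proteins hold unfolding proteins in a soluble state, and the barrel formed by the products of Hspd1 and Hspe1 folds proteins imported into mitochondria. Under proteotoxic stress the transcription factor HSF1 binds heat shock elements, which are inverted repeats of the unit GAA, in the promoters of many of these genes.

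Promoter windows from RefSeq (build GRCr8, from 250 bases before to 50 bases after each gene's start, 300 bases in all) matched 9 of the 10 genes by symbol. Heat shock elements of 2 units were searched as GAANNTTC and TTCNNGAA, each of which reads the same on both strands. Elements of 3 units were searched as both words in either order, overlapping by their shared 3 letters, so every 3-unit match also counts as a 2-unit match. A 2-unit match was present in 7 of the 9 windows (Dnaja1, Dnajb1, Hspa8, Hspb1, Hspd1, Hspe1 and Hsph1) and in 15.9% of all 33469 windows. A 3-unit match was present in 5 of the 9 (Dnaja1, Hspa8, Hspd1, Hspe1 and Hsph1) and in 0.798% of all windows. A match is a description of the letters and not evidence of HSF1 binding in these cells.

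The windows of Hspd1 and Hspe1 are shown because these genes lie head to head and share the element, and those of Hspa8 and Hsp90ab1 because they are the most abundant of the 10 genes, with and without a match. Sequences run 5′ to 3′ on the gene's own strand, and capitals mark the 2-unit matches.
Hspd1, chr9:64083988-64084287, minus strand: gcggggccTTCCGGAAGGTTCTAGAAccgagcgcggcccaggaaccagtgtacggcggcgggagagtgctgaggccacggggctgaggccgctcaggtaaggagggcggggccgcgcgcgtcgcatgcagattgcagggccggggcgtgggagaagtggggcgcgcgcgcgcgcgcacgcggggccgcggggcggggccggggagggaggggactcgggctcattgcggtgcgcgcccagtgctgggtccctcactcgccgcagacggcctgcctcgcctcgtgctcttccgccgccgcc
Hspe1, chr9:64084077-64084376, plus strand: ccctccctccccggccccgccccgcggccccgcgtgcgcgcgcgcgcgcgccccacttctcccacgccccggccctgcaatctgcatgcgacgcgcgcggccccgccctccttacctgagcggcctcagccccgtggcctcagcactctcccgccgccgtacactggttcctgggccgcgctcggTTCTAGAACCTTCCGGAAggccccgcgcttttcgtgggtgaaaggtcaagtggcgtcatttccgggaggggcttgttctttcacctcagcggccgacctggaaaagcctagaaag
Hspa8, chr8:50080264-50080563, plus strand: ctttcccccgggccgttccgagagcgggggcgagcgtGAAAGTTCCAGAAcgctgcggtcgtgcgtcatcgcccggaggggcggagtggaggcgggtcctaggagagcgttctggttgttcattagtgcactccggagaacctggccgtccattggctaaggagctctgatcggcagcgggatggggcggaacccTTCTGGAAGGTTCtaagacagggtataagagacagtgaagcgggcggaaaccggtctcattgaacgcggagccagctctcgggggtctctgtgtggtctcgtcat
Hsp90ab1, chr9:22930173-22930472, plus strand: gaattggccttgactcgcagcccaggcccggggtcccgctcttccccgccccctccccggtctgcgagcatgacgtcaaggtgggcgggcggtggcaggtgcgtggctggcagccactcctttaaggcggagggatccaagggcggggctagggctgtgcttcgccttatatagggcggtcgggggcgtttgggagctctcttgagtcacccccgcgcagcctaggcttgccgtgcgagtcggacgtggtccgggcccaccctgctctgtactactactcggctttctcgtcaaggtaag
The Hspd1 and Hspe1 windows overlap by 211 bases, and the run of 3 overlapping matches in capitals is the same stretch read from opposite strands. It begins 242 bases before the start of Hspd1 and 65 bases before that of Hspe1. The Hspa8 window held separate runs that begin 213 and 55 bases before its start.

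Levels are given as FPKM, in which fragments are divided by gene length and by library depth, so genes can be set side by side per length. The deposited FPKM resolved into whole reads, 14966354 to 16711527 per library, and the 10 genes together took between 0.269% and 0.289% of them. The first principal component, with 30.2% of the variance, had the soft libraries on one side and the stiff ones on the other. Libraries also differed in ways the gel does not account for: the second principal component, with 24.1% of the variance, placed soft replicates 2 and 3 and stiff replicate 2 on one side and soft replicate 1 and stiff replicates 1 and 3 on the other. All 10 stromal markers looked up (Thy1, Eng, Nt5e, Cd44, Pdgfrb, Pdgfra, Vcam1, Col1a1, Col1a2 and Prrx1) were measured, with Thy1 at 476.8 FPKM or more in every library. The lowest of them, Eng, Nt5e and Vcam1, lay between 13.5 and 18.5 FPKM. Of 10 macrophage and leukocyte markers 8 passed the level filter, and the 9 with a row summed to between 349.5 and 355.8 FPKM in soft and between 313.7 and 328.1 FPKM in stiff gel. Cd68 and Cd53 fell and Adgre1 rose (limma on all genes), and the part of such cells in the results was not tested. In bulk RNA, fewer cells of a type and less RNA per cell cannot be told apart. The 6 endothelial markers with a row summed to at most 1.60 FPKM and the 4 erythroid ones to at most 0.768 FPKM, with Hbb listed at 0 in all 6 libraries.

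The comparison of stiff with soft gel asks whether the stiffness around the cells went with other levels of these chaperones. None of the 10 genes passed limma's test over all 12713 genes tested, at a Benjamini-Hochberg adjusted p of 0.05. Of the tested genes 1.43% passed, 1.01% as higher in stiff gel (128 genes) and 0.425% as lower (54 genes). Scaling every library to 1 common FPKM sum made these 88 and 68, and quantile normalization 103 and 68. None had an unadjusted p under 0.05, against 15.4% of tested genes, and voom on recovered reads, which called 2.49% of tested genes, called none either. In all 10 the soft and stiff libraries overlapped, whereas in 22.6% of tested genes they did not (11.7% higher and 10.9% lower in stiff gel). The log2 fold change lay above 0 in 8 of the 10, against 50.4% of all tested genes, with a median of 0.06 against 0.0013. It lay above 0 in 7 when each library was scaled to the same FPKM sum, against 38.6% of all genes, whose median was then -0.042. After quantile normalization it lay above 0 in 6, against 49.5%. Hsp90aa1 apart, the other 9 genes had log2 fold changes between -0.016 and 0.16, adjusted p between 0.478 and 0.978, and 95% intervals that together ran from -0.24 to 0.40. All 10 genes passed the filter of a mean of at least 1 FPKM.

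**Figure D1:**
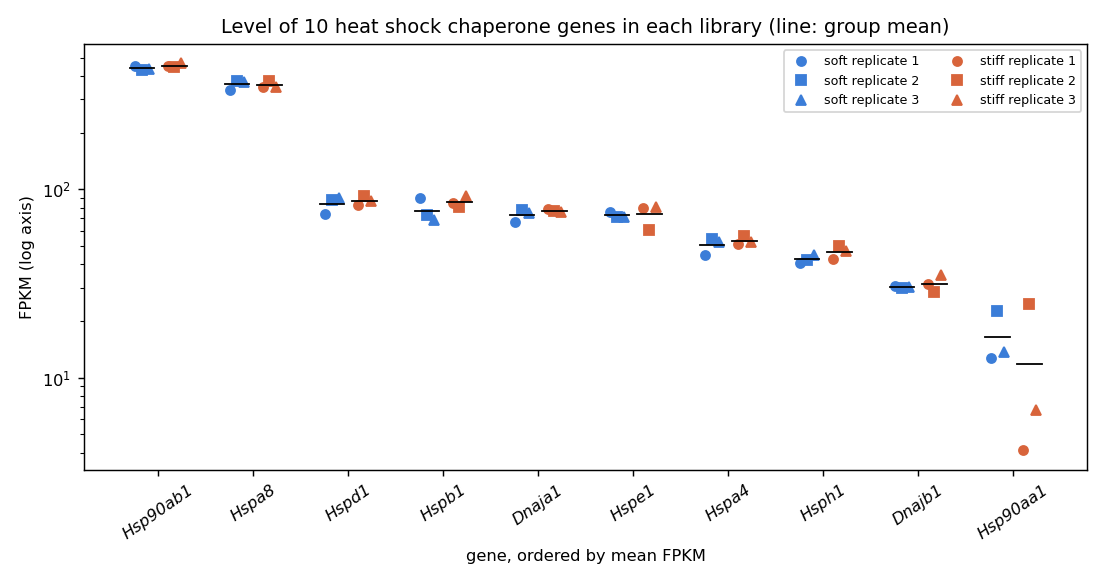
FPKM (log axis) of the 10 chaperone genes in each library, ordered by mean level, with soft libraries in blue, stiff libraries in orange and a line at each group mean. The 6 values of Hsp90ab1 lie between 428.2 and 466.4 FPKM, while those of Hsp90aa1 spread from 4.11 to 24.7 FPKM within overlapping groups.

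Levels of the 10 genes ran over more than an order of magnitude. Hsp90ab1 was highest with a mean of 446.2 FPKM, followed by Hspa8 with 359.4 FPKM, and the ranges of these genes did not overlap each other or that of Hspd1. These 2 genes made up between 63.1% and 64.5% of the summed FPKM of the 10 in every library. Hspd1, Hspb1, Dnaja1 and Hspe1 came next, at means of 85.4, 81.6, 75.1 and 73.3 FPKM, and each of these neighbours overlapped the next over the 6 libraries. Hspa4 and Hsph1, at 52.0 and 44.6 FPKM, overlapped each other but not Hspe1 above or Dnajb1 below. Dnajb1 followed at 30.9 FPKM and Hsp90aa1 came last at 14.1 FPKM, again without overlap.

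Hspa8 encodes the constitutive cytosolic HSP70. Its row (ENSRNOG00000034066) lies on chromosome 8, 44990014 to 44993179. No build is named for the table's positions, here or for the genes that follow. Its level was 338.6, 374.4 and 371.3 FPKM in the soft libraries and 350.2, 373.9 and 347.8 FPKM in the stiff ones, in the order of replicates 1 to 3 that is kept below. The 3 highest values were those of soft 2, soft 3 and stiff 2, and the groups overlapped. The means were 361.4 ± 19.8 and 357.3 ± 14.4 FPKM (SD, n = 3 per group), and the log2 fold change was -0.016 (95% interval -0.15 to 0.12, limma adjusted p = 0.932). Among rows annotated as similar to this gene, which may share its reads, were LOC680121 at 22.8 to 31.8 FPKM, and the pseudogenes LOC688655 at 6.71 to 8.01 and LOC688932 at 0.189 to 0.693 FPKM. The level of Hspa8 is uncertain by an amount that is not known, because the treatment of reads with several matches is not stated.

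Neither exchange factor of the HSP70 cycle passed the test. Hsph1 (ENSRNOG00000000902, chromosome 12, 6322668 to 6341902) encodes the large HSP70 relative also called HSP110. It was at 40.9, 42.0 and 44.9 FPKM in the soft libraries and at 42.5, 50.2 and 46.9 FPKM in the stiff ones. Stiff replicates 2 and 3 lay above every soft library, while stiff replicate 1 lay among them. Stiff against soft, the log2 fold change was 0.12 (95% interval -0.050 to 0.30, limma adjusted p = 0.478), the smallest adjusted p of the 10 genes. Hspa4 (ENSRNOG00000016596, chromosome 10, 38601624 to 38642397), a second exchange factor of this kind, was at 44.9, 54.2 and 52.8 FPKM in the soft libraries and at 51.2, 56.6 and 52.5 FPKM in the stiff ones. Soft replicate 1 was lowest and stiff replicate 2 highest. Its log2 fold change was 0.08 (-0.11 to 0.27), and -0.0023 without soft replicate 1.

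The J-domain partners did not pass the test either. Dnaja1 (ENSRNOG00000007029, chromosome 5, 57028467 to 57039378), which helps HSP70 to fold new and imported proteins, was at 66.9, 78.0 and 75.1 FPKM in soft gel and at 78.2, 76.4 and 76.2 FPKM in stiff gel. Soft replicate 1 lay below the other 5 libraries, and the stiff libraries were close to each other, with an SD of 1.13 FPKM. Stiff minus soft, the log2 difference was 0.07 (95% interval -0.083 to 0.23, limma adjusted p = 0.656). Dnajb1 (ENSRNOG00000021824, chromosome 19, 24747178 to 24750919), a stress-inducible J-domain protein, was at 30.5, 29.9 and 30.2 FPKM in soft and 31.3, 28.5 and 34.9 FPKM in stiff gel. Here the soft libraries were the tight group and stiff replicates 2 and 3 were the lowest and the highest of the 6. For Dnajb1 the log2 fold change was 0.06 (-0.12 to 0.24, adjusted p = 0.777).

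Hsp90ab1 (ENSRNOG00000019834, chromosome 9, 17817721 to 17823243) encodes the constitutive beta form of cytosolic HSP90. It was at 450.7, 428.2 and 436.1 FPKM in soft gel and at 450.8, 444.9 and 466.4 FPKM in stiff gel. Its stiff values were spread around the highest soft one, which was that of replicate 1. The means were 438.3 ± 11.4 and 454.0 ± 11.1 FPKM (SD, n = 3 per group), with a log2 fold change of 0.05 (95% interval -0.055 to 0.16, limma adjusted p = 0.645), which was -0.059 after quantile normalization. This was the narrowest interval of the 10 genes, on 17867 to 20777 reads per library.

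Hsp90aa1 (ENSRNOG00000059714, chromosome 6, 135107271 to 135112775), the stress-inducible alpha form, varied more between libraries of a group than any of the other 9 genes. It was at 12.7, 22.6 and 13.7 FPKM in the soft libraries and at 4.11, 24.7 and 6.71 FPKM in the stiff ones. The stiff group thus held the highest and the 2 lowest of the 6 values, a 5.99-fold range that enclosed all soft values. Reads behind these values were 590, 1021 and 615 in soft and 169, 1099 and 310 in stiff gel. With reads taken as independent, counting error was at most 7.69% (1 SD), and any further sampling error was not measured. The coefficient of variation was 33.2% in soft and 94.6% in stiff gel. Among the 5006 tested genes with a mean level within a factor of 2 of its own, 15, or 0.30%, had a spread within groups at least as large, itself included. Its log2 fold change was -0.75 (95% interval -2.03 to 0.54, limma adjusted p = 0.569). It was -1.42 without stiff replicate 2 and -0.26 without stiff replicate 1, with adjusted p of 0.109 and 0.863, so single libraries set its size.

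Hsp90aa1 has annotated copies, and its level is uncertain for that reason. LOC103692716, annotated as HSP 90-alpha, lies on the same chromosome and strand from 135045363 to 135049728 and was at 0.502 to 0.949 FPKM on 17 to 35 reads. The processed pseudogene LOC680491 on chromosome 13 was at 1.38 to 2.17 FPKM on 49 to 80 reads. In stiff replicates 1 and 3, where Hsp90aa1 was lowest, the copies held 17 and 66 reads and 35 and 51 reads. With the reads of both added, a step chosen after seeing the data, the log2 fold change was -0.61 (limma adjusted p = 0.582). Hsp90aa1 made up 2.75%, 5.01% and 3.05% of the FPKM of both HSP90 genes in the soft libraries and 0.904%, 5.25% and 1.42% in the stiff ones. Hsp90ab1 thus outweighed it in every library, between 18.0 and 109.6 times per length.

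**Figure D2:**
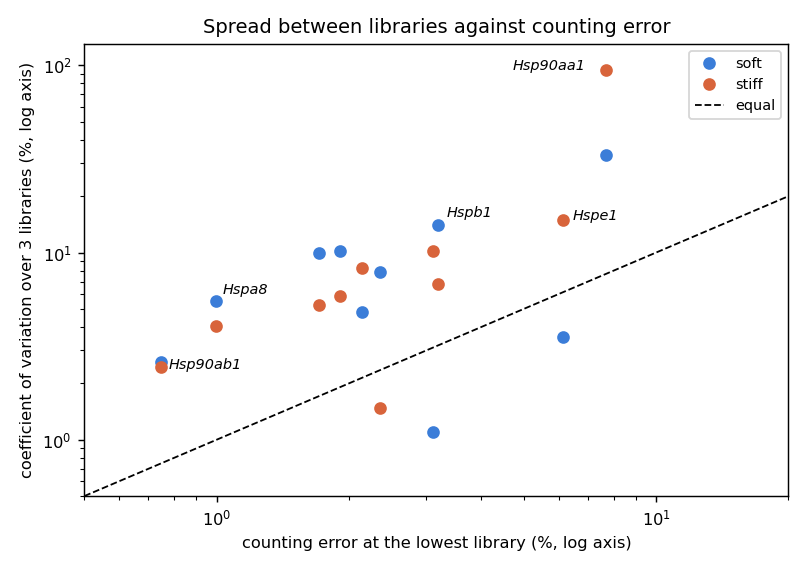
Coefficient of variation over the 3 libraries of a group (log axis, soft in blue, stiff in orange) against counting error in the library with the fewest reads (log axis), 1 point per gene and group, with 5 genes labelled and a dashed line where both are equal. Points of Hsp90aa1 stand at 33.2% and 94.6%, while the other 9 genes lie between 1.09% and 14.8%.

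Hspb1 (ENSRNOG00000023546, chromosome 12, 23839399 to 23841049) encodes HSP27, the small heat shock protein that binds unfolding proteins and actin filaments. It was at 89.5, 73.3 and 68.8 FPKM in soft gel and at 84.9, 80.9 and 92.4 FPKM in stiff gel. All stiff libraries lay above soft replicates 2 and 3, while soft replicate 1 exceeded 2 of them. The means were 77.2 ± 10.9 and 86.1 ± 5.84 FPKM (SD, n = 3 per group), 1.12-fold, with a log2 fold change of 0.16 (95% interval -0.078 to 0.40, limma adjusted p = 0.499). Leaving out single libraries moved the log2 fold change between 0.085 and 0.27, with adjusted p between 0.147 and 0.789.

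The mitochondrial chaperonin genes lie head to head. Hspd1 (ENSRNOG00000014525), which encodes the barrel subunit HSP60, lies on the minus strand of chromosome 9, 61680530 to 61690956, and so begins at 61690956, and Hspe1 (ENSRNOG00000051624), which encodes its lid, begins on the plus strand at 61692154, with 1197 bases between the rows. The RefSeq starts used for the promoter windows (GRCr8) have 289 bases between them. Hspd1 was at 74.0, 87.5 and 89.9 FPKM in soft gel and at 82.4, 92.5 and 86.2 FPKM in stiff gel. Hspe1 was at 75.6, 71.6 and 70.9 FPKM in soft gel and at 79.7, 61.2 and 80.5 FPKM in stiff gel. Stiff replicate 2 held the highest value of Hspd1 and the lowest of Hspe1. The ratio of Hspe1 to Hspd1 was 1.02, 0.818 and 0.789 in soft and 0.968, 0.661 and 0.935 in stiff gel. The levels of Hspd1 and Hspe1 thus did not move in parallel between libraries, and the cause was not tested. The row of Hspe1 is 267 bases long and held 264 to 360 reads, so its level per length and its ratio to Hspd1 rest on few reads. Hsp90aa1 held more in every soft library (590, 1021 and 615) and in stiff replicate 2 (1099). In the remaining stiff libraries Hsp90aa1 held fewer, 169 and 310 against 317 and 360 for Hspe1. The remaining chaperone genes described here held more reads than Hspe1 in every library.

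Neither chaperonin gene passed the test. Hspd1 had a log2 fold change of 0.06 (95% interval -0.14 to 0.26, limma adjusted p = 0.804) and Hspe1 one of 0.01 (-0.24 to 0.26, adjusted p = 0.978). The estimate of Hspd1 was -0.029 without soft replicate 1, and that of Hspe1 was -0.038 when libraries were scaled to the same FPKM sum.

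**Figure D3:**
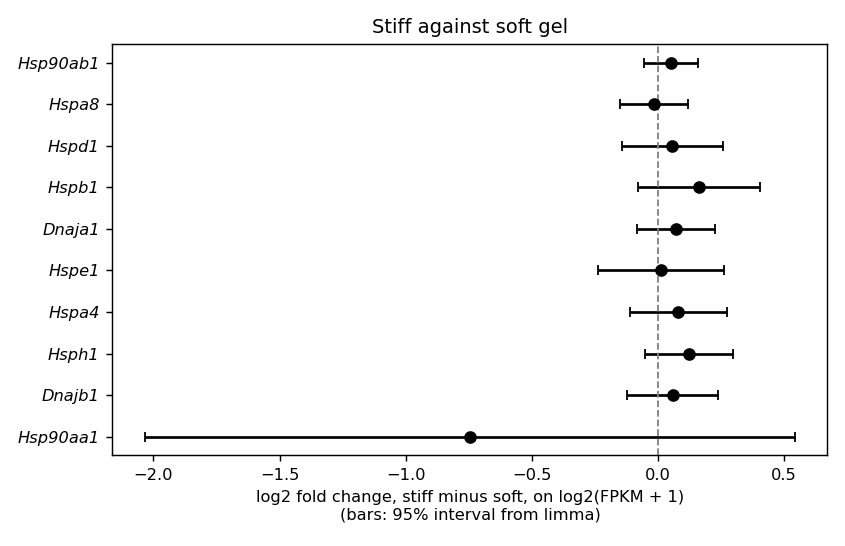
Log2 fold change of stiff against soft gel on log2(FPKM + 1) for each chaperone gene, with bars for the 95% interval from limma and a dashed line at 0. All 10 intervals hold 0; that of Hsp90ab1 is the narrowest and that of Hsp90aa1, from -2.03 to 0.54, the widest.

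Most of the genes split the libraries 3 against 3 in the same way across gels, some in one direction and some in the other. Soft 2, soft 3 and stiff 2 were the 3 highest of the 6 libraries for Hspa8, Hspa4, Hspd1 and Hsp90aa1. The same libraries were the 3 lowest for Hsp90ab1, Dnajb1, Hspb1 and Hspe1. Together these are 8 of the 10 genes, whereas 20.8% of all tested genes had these libraries at one end, 10.4% as the highest and 10.5% as the lowest. Dnaja1 and Hsph1 did not follow the order. Some gaps behind the split were near or within counting error. For Hsp90aa1, soft 3 and soft 1 were at 13.7 and 12.7 FPKM, on 615 and 590 reads. For Dnajb1 they were at 30.2 and 30.5 FPKM, with a counting error of at most 3.11% when reads are taken as independent. Soft 2, soft 3 and stiff 2 are the libraries on the negative side of the second principal component. It was computed from the same values, so the split is a description and was not tested. With that side as a term in the fit, a choice made after seeing the data, limma still called none of the 10 genes, and 3 had an unadjusted p under 0.05, against 24.9% of all tested genes in that fit. What the libraries on a side share is not given in the labels.

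**Figure D4:**
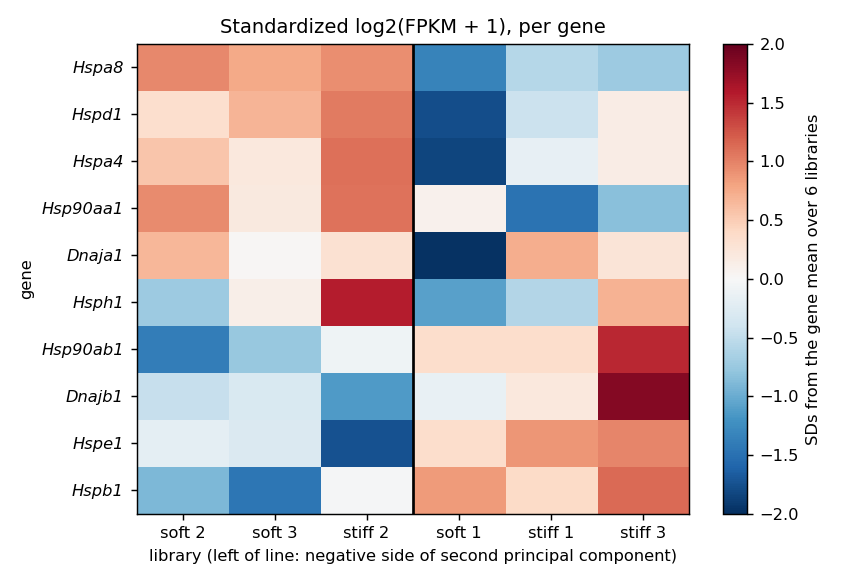
Level of each gene as SDs from its own mean over the 6 libraries, on log2(FPKM + 1), with libraries on the negative side of the second principal component left of the line and the others right of it. The upper 4 genes are higher in every library on the left than on the right, and the lower 4 are lower there, some by small gaps. Dnaja1 and Hsph1 between them follow neither pattern.

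Other genes of the chaperone system were read from 8 lists holding 79 genes outside the 10, of which 70 passed the level filter. None of the 70 passed limma's test over all genes, against 1.43% of tested genes. An unadjusted p under 0.05 was found in 8, against 15.4% of tested genes, and voom on recovered reads called 1, Hspa1b, against 2.49%. Their median log2 fold change was 0.05. The groups did not overlap in 17.1% of them, against 22.6% of tested genes.

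Among 6 tested HSP70 relatives the mitochondrial HSP70 gene Hspa9 was most abundant, at 65.9 ± 2.66 FPKM in the soft libraries and 71.8 ± 2.41 FPKM in the stiff ones (SD, n = 3 per group). Its stiff libraries lay above all soft ones, at a log2 fold change of 0.12 (limma adjusted p = 0.338). Hspa13, which encodes a microsomal HSP70-like protein, was at 20.4 ± 2.92 and 21.6 ± 2.07 FPKM. The stress-inducible HSP70 gene Hspa1b, named here after its values were seen, was at 2.86, 2.73 and 3.18 FPKM in the soft libraries and at 1.75, 1.08 and 1.63 FPKM in the stiff ones. Every stiff library lay below every soft one, and the log2 fold change was -0.67 (95% interval -0.99 to -0.35, limma adjusted p = 0.0741). The adjusted p was 0.0256 with voom, 0.0234 with array weights and 0.0448 with the side of the second component as a term, and between 0.136 and 0.238 without single libraries. Voom, array weights and the side term also called more genes of all, 317, 685 and 526 against 182. The side was computed from the same values that were tested. Hspa1b rested on 43 to 127 reads per library, and a near copy of it, LOC108348108, was at most at 0.425 FPKM, so its level is uncertain too.

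None of 15 J-domain genes, 8 exchange factors and adaptors of HSP70 and 15 co-chaperones of HSP90 passed limma's test. An unadjusted p under 0.05 was found in 0, 1 and 0, against 15.4% of all tested genes. With voom 0 were called, against 2.49%. Their median log2 fold changes were 0.04, 0.02 and 0.06. Dnaja2, a close relative of Dnaja1, was at 59.0 ± 2.95 and 63.5 ± 3.51 FPKM (SD, n = 3 per group), and Dnajc8 at 45.0 ± 2.53 and 46.1 ± 0.252 FPKM. Bag6, a factor for misplaced membrane proteins, was at 73.6 ± 8.94 and 68.9 ± 4.81 FPKM, and St13, an adaptor that binds HSP70, at 70.1 ± 3.13 and 69.7 ± 3.12 FPKM. Ptges3, the p23 co-chaperone of HSP90, was at 72.5 ± 6.07 and 81.9 ± 7.90 FPKM, and Cdc37, which brings kinases to HSP90, at 61.0 ± 7.10 and 60.3 ± 5.19 FPKM.

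The list of genes named as small heat shock proteins beside Hspb1 had the highest list median, 0.25, over 6 tested genes. None passed limma's test and voom called none, but 4 had an unadjusted p under 0.05, against 15.4% of all tested genes, and 4 had every stiff library above every soft one, against 11.7%. In both counts these were Hspb6, Hspb7, Hspb11 and Cryab. Genes were listed by symbol, Hspb11 among them, so these counts and the median describe the list and not a protein family. Reads were few for Hspb7 (76 to 103 per library) and Hspb11 (41 to 63). Hspb6, a small heat shock protein of muscle, was at 13.1, 10.6 and 12.1 FPKM in soft and 14.9, 17.1 and 15.7 FPKM in stiff gel, with a log2 fold change of 0.39 (95% interval 0.18 to 0.60, limma adjusted p = 0.101). Cryab, the alpha B crystallin gene, named after its values were seen, was at 1.67, 1.17 and 2.02 FPKM in the soft libraries and 2.96, 3.12 and 4.60 FPKM in the stiff ones, on 24 to 96 reads per library. Its log2 fold change was 0.79 (limma adjusted p = 0.0959). With array weights, which called 685 genes of all against 182, the limma adjusted p of Hspb6 was 0.0310. Hspb8, a partner of BAG3, was at 9.89 ± 0.433 and 9.38 ± 0.282 FPKM (SD, n = 3 per group).

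Mitochondrial chaperones and quality control proteases (17 tested) had no limma call and no voom call. In that list 1 gene had an unadjusted p under 0.05, against 15.4% of all tested genes, and the median was 0.05. Phb2, a scaffold protein of the inner membrane and the most abundant of the list, was at 81.7 ± 4.77 and 82.5 ± 4.27 FPKM (SD, n = 3 per group). Heat shock factors and their binding protein had no call by either tool among 4 tested genes and 1 at an unadjusted p under 0.05, against the same 15.4%. Hsf1, which encodes the master heat shock factor, was at 13.3 ± 2.49 and 13.6 ± 0.442 FPKM, and Hsbp1, which encodes a protein that binds it, at 86.5 ± 0.707 and 90.9 ± 0.735 FPKM. Among 9 tested genes known for strong induction by stress, limma called none. An unadjusted p under 0.05 was found in 2, against 15.4% of all tested genes, and voom called 1, against 2.49%. These 2 were Hspa1b, lower in stiff gel, and Cryab, higher there, both already counted in the lists above, and the voom call was Hspa1b. In that list Stip1, which links HSP70 to HSP90, was at 45.9 ± 0.807 and 48.3 ± 1.61 FPKM, and Bag3, a stress-induced partner of HSP70 in autophagy, at 31.9 ± 1.97 and 29.9 ± 0.750 FPKM.

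**Figure D5:**
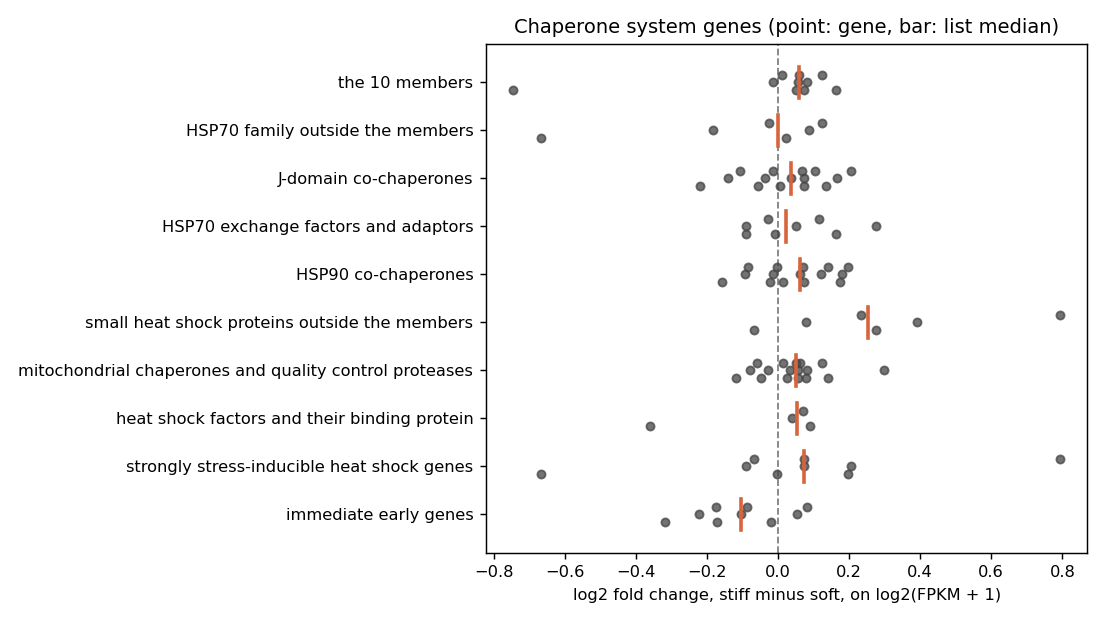
Log2 fold change of stiff against soft gel on log2(FPKM + 1) for every tested gene of the chaperone system and of an immediate early list, 1 point per gene and a bar at each list's median. Most points lie near 0; those farthest out are Hsp90aa1 (-0.75) and Hspa1b (-0.67) on the left and Cryab (0.79) on the right, and Hspa1b and Cryab stand in both lists that hold them, none past the limma threshold.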

How the data were processed

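RNA of 6 libraries (3 soft, 3 stiff) was made into libraries with the QIAseq FX Single Cell RNA Library Kit, per the labels' protocols. FPKM values were deposited by the authors in 1 table, per the file headers. Bowtie 0.12.9, Cufflinks 2.1.1 and HTSeq appear in the submitters' processing notes with the builds mm10 and GRCm38, which are mouse builds, although the identifiers are those of rat Ensembl genes. Strand use and multiple matches are not described there. FPKM times the deposited gene length gave whole multiples of 1 step per library for 100% of values (tolerance 0.0001). These recovered reads served for depth, shares of reads, reads per gene, counting error, voom and the fit with the reads of annotated copies added. The main test did not use them.

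The test used log2(FPKM + 1) of the 12713 genes whose mean reached 1 FPKM. It was fitted in limma 3.58.1 (R 4.3.3) on gel group alone with an intensity trend, two-sided, with Benjamini-Hochberg adjustment at 0.05. Fold changes on this scale understate those of low genes. An exact permutation test of 3 against 3 cannot go below 0.1 and was not used. The fit was tested on simulated data in which genes varied independently. Shared differences between libraries were not part of that test. The 10 genes and the lists were chosen with earlier results of these data known. Of the list genes, 6 had no matching name and were not analysed here. Named were the 10 chaperones, in each list up to 4 called genes or, with none called, the 2 most abundant, and the 5 genes most like the chaperones' mean profile; others are marked as chosen after their values were seen. Alternatives changed pseudocount, filter, scaling, variance model, weights, block and libraries. Adding the reads of annotated copies and the side of the second component were chosen after seeing the data.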

Additional observations from a re-analysis of the deposited data

How the results depend on the processing

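None of the 10 chaperone genes was called under any of the 17 alternatives, and the lowest adjusted p any of them reached there was 0.0729. Their median log2 fold change was 0.058, became 0.0091 with libraries scaled to 1 sum and 0.018 when quantile normalized, and ran from 0.024 (without soft replicate 1) to 0.071 when single libraries were left out. The median of all tested genes moved as well, from 0.0013 to -0.042 at equal sums and to -0.0019 after quantile normalization. The number of called genes overall was 182, against 92 without a level filter, 112 without the intensity trend, 685 with array weights, 317 with voom, 526 with the side of the second component as a term, and 27 to 159 when single libraries were left out (159 without soft replicate 1, 54 without soft 2, 38 without soft 3, 27 without stiff 1, 46 without stiff 2 and 37 without stiff 3). The replicate number as a block gave 105 calls, 78 higher and 27 lower; the deviations of same-numbered libraries correlated at 0.0552, 0.116 and -0.0785, so the numbers were not taken to pair libraries, and the block called none of the 10 genes. Estimates near 0 changed sign. At equal sums they became -0.038 for Hspe1, -0.013 for Dnajc8, -0.035 for Phb2 and -0.0074 for Hsf1. After quantile normalization they became -0.059 for Hsp90ab1, -0.025 for Hspe1, -0.044 for Phb2 and -0.0048 for Ier3. With array weights they became -0.044 for Hspd1, -0.051 for Hspa13, -0.00022 for Dnajc8, 0.0012 for Bag6 and 0.087 for Cdc37, and with voom -0.0061 for Hspe1 and -0.0020 for Phb2. With the second component's side they became 0.024 for Hspa8, -0.067 for Hspe1, -0.028 for Phb2 and -0.041 for Hsf1. Without single libraries the estimate ran from -0.062 to 0.010 for Hspa8, -0.0023 to 0.13 for Hspa4, -0.015 to 0.13 for Dnajb1, -0.029 to 0.11 for Hspd1, -0.057 to 0.14 for Hspe1, -0.030 to 0.16 for Hspa13, -0.0075 to 0.071 for Dnajc8, -0.15 to 0.0067 for Bag6, -0.039 to 0.027 for St13, -0.064 to 0.078 for Cdc37, -0.025 to 0.057 for Phb2 and -0.056 to 0.18 for Hsf1. The cause of these shifts was not tested. With 3 libraries a group, changes of any size inside the 95% intervals were not excluded.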

Other observations

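Immediate early genes, which respond within minutes to growth factors and to handling, were read beside the chaperones. Of 9 tested, limma called none, 3 had an unadjusted p under 0.05, against 15.4% of all tested genes, and voom called 1, against 2.49%. Their median log2 fold change was -0.10, and 3 had every stiff library below every soft one, against 10.9% of all tested genes. Zfp36, named after its values were seen, encodes a protein that destabilizes mRNA; it was at 74.3, 71.5 and 67.7 FPKM in soft and 55.6, 55.2 and 59.6 FPKM in stiff gel (log2 fold change -0.32, limma adjusted p = 0.0530, and 0.0256 with voom). Junb, the most abundant, was at 153.3 ± 17.5 and 135.5 ± 11.1 FPKM (SD, n = 3 per group), with a limma adjusted p of 0.437. It was 0.0429 with the second component's side as a term, which was computed from the same values. Ier3 was at 93.0 ± 3.22 and 96.5 ± 4.37 FPKM.

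The tested genes whose profile over the 6 libraries was most like the mean standardized profile of the 10 chaperones were Ywhaq, Fcf1, Rbbp7, Nt5c3a and Ppp2cb, with Pearson correlations between 0.990 and 0.996 as a description only. In each of these 5 genes soft replicate 1 was lowest and stiff replicate 3 highest, as for Ywhaq, a 14-3-3 protein gene, at 112.7 and 138.2 FPKM. The mean profile averages 4 chaperones that were high and 4 that were low in the same libraries.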
